A study of Coturnix japonica with 144 samples.

Results

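This account concerns 129 genes whose RNA was most abundant in the nucleus taeniae of the amygdala (Tn) of the Japanese quail brain, among 21561 genes counted in 48 libraries of each of 3 brain regions. They are called Tn-high genes here. Counts were scaled to a common library total and given as CPM, the usual sequencing-depth unit, and the median over birds was taken for the Tn, the hypothalamus and the BnST, the bed nucleus of the stria terminalis. A gene was included if its Tn median was at least 2 CPM and, with 0.1 added to each median, at least 2 times each of the other medians. The regional levels therefore chose these genes and are given as a description, with no test. The rule had a limit of 150 genes that was not reached, and the 21 genes named in the study's lists of treatment and brooding genes were to be left out, but 0 of them met the criteria.

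The libraries came from 48 adult birds, each of which gave 1 library per region. All birds were kept under a short photoperiod, which holds the gonads quiescent. Sensitized birds (11 females, 13 males) had spent a night in a closed box with chicks, control birds (16 females, 8 males) a night in the box alone, and both were then given unfamiliar chicks. The labels further divide sensitized birds into 17 R and 6 NR, and control birds into 5 S and 17 NS, while 3 birds have no class. No key to these codes is given. The study describes more control birds with some brooding than carry the class S, so NS cannot be read as no brooding, and the classes are used here as labelled. Tissue was punched from frozen sections, so a punch can take in neighbouring tissue. In such bulk samples fewer cells of a type and less RNA per cell cannot be told apart.

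The Tn is a small nucleus of the ventral telencephalon that is widely compared with the medial amygdala of mammals. It connects with the BnST and the hypothalamus, and in birds the 3 regions are counted among those that govern social behaviour. Genes that mark a brain nucleus commonly include transcription factors, receptors, adhesion molecules and neuropeptides of its neurons. The deposited table lists genes by Ensembl identifier only, and 0 of the 129 could be paired with a symbol, so roles, cell type markers and sequences are not given. Of the regional labels, that of the hypothalamus could be checked with urocortin 3 (UCN3), a neuropeptide gene outside the 129. Its median was 30.3 CPM in the hypothalamus (13.9 to 61.8), whereas the BnST had 3.56 and the Tn 0.23. A Tn library described further on lay within that hypothalamus range, so this check by a single gene holds for the medians only. The Tn label could not be checked against markers.

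The library totals ranged from 9664414 to 19640873 counts (median 12636688), and those of the Tn from 9789285 to 17288344. Bird 17 is labelled male, but its Tn library lay among those of females for a sex-biased gene described further on. Its hypothalamus library did so for another such gene. The sex comparisons were also made without this bird. The BnST library of bird 49 had the lowest summed level of Tn-high genes in that region (1889 CPM, against a median of 3639). The bird numbers run from 1 to 50, and the labels name no series or batch. They were split here into a low series (1 to 20, 19 birds) and a high series (21 to 50, 29 birds), a cut chosen with earlier results of these data known, and the difference between them is given with the comparisons.

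The 129 genes covered a wide span of abundance, from a Tn median of 2.06 to 703 CPM, with a median of 20.97 CPM. CPM is not corrected for gene length. Of these genes, 31 had a Tn median of 100 CPM or more and 44 a median under 10 CPM. The smaller of the Tn ratios was 2.38 at the median. It was at least 3 for 33 genes, at least 5 for 11 genes and at least 10 for 4 genes. Just inside the threshold stood genes with a smaller ratio of 2.0007 and 2.003, and just outside it genes with 1.998 and 1.990. For 110 of the 129 genes the BnST median was above that of the hypothalamus, and for 19 genes the hypothalamus was higher. In 13 genes the medians of both other regions were under 1 CPM. The same rule applied to the other regions gave 149 genes highest in the hypothalamus and 97 highest in the BnST.

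**Figure D1:**
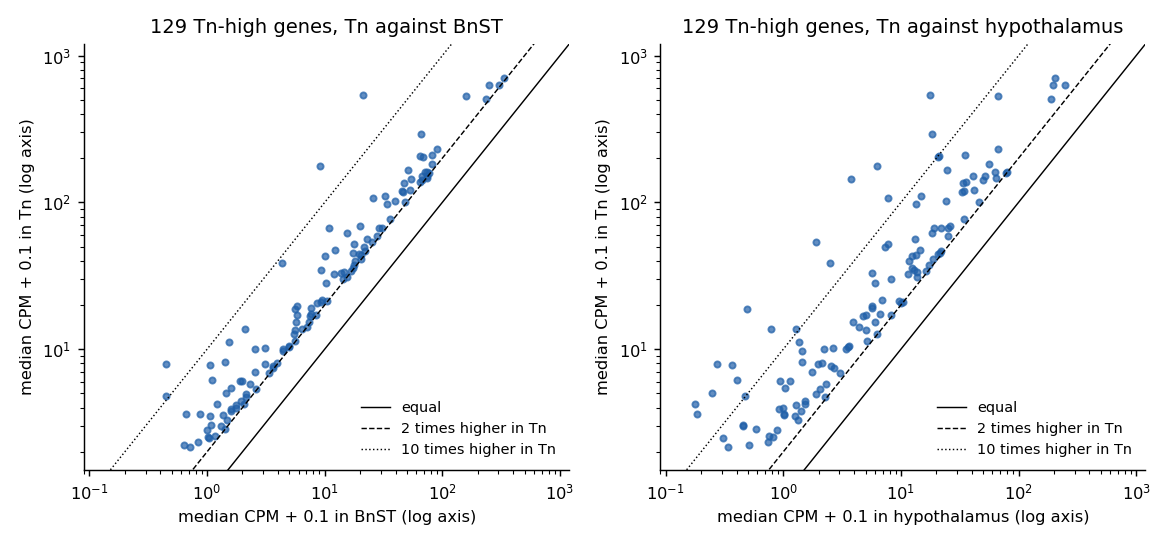
Median CPM (48 birds, 0.1 added, log axes) of the 129 Tn-high genes in the Tn against the BnST (left) and the hypothalamus (right), 1 point per gene, with lines for equal, 2 times and 10 times higher levels. Most genes lie near the 2-times line against the BnST and farther from it against the hypothalamus, the BnST median being the higher of the other regions for 110 genes.

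The gene with the largest ratio was ENSCJPG00005005709. Its level in the Tn was 48.9 CPM in the lowest library, 543 at the median and 1006 in the highest, while the BnST libraries ran from 9.04 to 135 CPM (median 21.1) and the hypothalamus from 11.3 to 85.1 (median 17.7). The smaller ratio was 25.6. In all 48 birds the Tn was the highest of the 3 regions, but the libraries of different birds overlapped, because the Tn of bird 14 was at 48.9 CPM and the next lowest at 164. ENSCJPG00005005711 had the next ratio, 19.5, with Tn levels of 16.8 to 358 CPM (median 176) against medians of 8.94 in the BnST and 6.22 in the hypothalamus. Both genes moved almost together over the Tn libraries. The quotient of their CPM was 3.07 at the median and stayed within 2.61 to 3.57, and Spearman's rho over the 48 libraries was 0.98. In the BnST the quotient ran from 1.34 to 3.85 (median 2.67) and in the hypothalamus from 1.99 to 4.19 (median 2.91), at lower levels of both genes. Whether they share reads cannot be told from the counts.

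For 3 of the 129 genes no Tn library overlapped any library of the other regions. The genes were chosen by these same levels, and the share of all genes so separated is not given here. The count of 3 therefore cannot be read as many or few. ENSCJPG00005007896 ranged from 14.1 to 63.9 CPM in the Tn (median 38.3) and reached at most 13.7 in the BnST and 6.62 in the hypothalamus. ENSCJPG00005016623 ranged from 8.60 to 28.7 CPM in the Tn (median 19.5) and reached at most 8.39 and 8.51 CPM. ENSCJPG00005001903 was abundant everywhere, with 398 to 1111 CPM in the Tn (median 631) against at most 356 in the BnST and 320 in the hypothalamus. These 3 genes were singled out after their values were seen. Within birds the pattern was wider, since 53 of the 129 genes were highest in the Tn in all 48 birds, and the median gene in 47. The gene with the fewest, ENSCJPG00005009617, was highest in the Tn in 35 birds. Counted by bird, between 110 and 129 of the genes were highest in the Tn. The counts within birds likewise describe levels that chose the genes, with no share of all genes beside them.

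**Figure D2:**
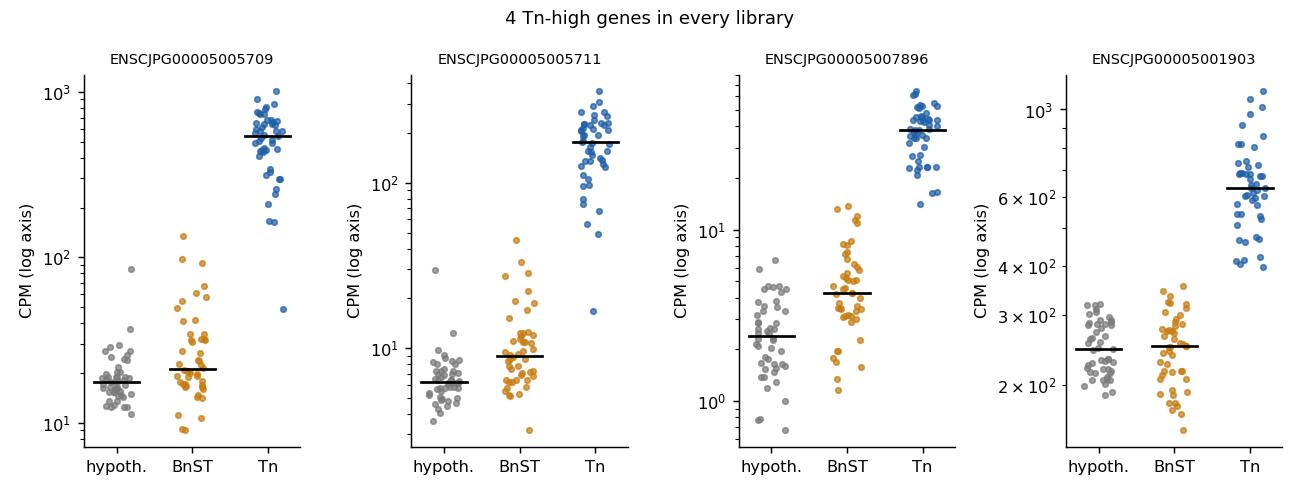
CPM (log axes) of 4 Tn-high genes in every library, 1 point per bird and region, with the median of 48 birds as a bar. The Tn libraries of ENSCJPG00005007896 and ENSCJPG00005001903 lie above every other library, and for ENSCJPG00005005709 and ENSCJPG00005005711 a single Tn library, that of bird 14, falls to the range of the other regions.

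Membership shifted with the birds that entered the medians. Females alone gave 146 genes, of which 118 were among the 129 (80.8% of the females' list and 91.5% of the full list), and males alone gave 117 genes with 107 shared (91.5% and 82.9%). Birds 1 to 20 gave only 82 genes with 70 shared (85.4% and 54.3%). Birds 21 to 50 filled the limit of 150 genes, with 119 shared (79.3% and 92.2%).

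The Tn-high genes varied between birds more than most genes of the Tn. Their coefficient of variation over the 48 Tn libraries was 29.4% at the median (13.7% to 93.1%), against 15.2% over the 12817 genes with a Tn median of at least 2 CPM, and 127 of the 129 genes lay above that value. Genes chosen by the same rule had a median coefficient of variation of 29.8% in the hypothalamus and 85.1% in the BnST, each in its own region. The summed level of the 129 genes was 5529 CPM in the lowest Tn library, 9654 at the median and 12561 in the highest. The lowest were bird 12 (5529 CPM, a male control), bird 14 (5890 CPM, a sensitized male) and bird 26 (6187 CPM, a sensitized female), and in these birds 38, 30 and 16 of the genes were more than 1 log2 unit below their median over the Tn libraries. The highest was bird 21, a male control. Every Tn library exceeded every hypothalamus library (2036 to 3124 CPM), whereas the BnST ran up to 5817 CPM and overlapped the Tn.

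The levels of genes highest in the other regions differed between these low libraries. The genes highest in the BnST summed to 30970 CPM in the Tn library of bird 14 and to 10717 in that of bird 26, against a median of 774 over the Tn libraries, and to 1238 in bird 12. The genes highest in the hypothalamus summed to 3408, 8552 and 6702 CPM in birds 14, 26 and 12, against a median of 4515. UCN3 was at 20.4 CPM in the Tn library of bird 26 and at 1.03 in that of bird 14, and bird 12 was at 0.08. The part of neighbouring tissue in these levels was not tested. The counts of genes in each comparison were also made with these birds left out, which was decided once the data had been seen.

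The levels of these genes varied together in part. Spearman's rho between pairs of them over the 48 Tn libraries was 0.32 at the median of 8256 pairs, with 86.2% of pairs positive, against a median of 0.01 over all pairs of the 12817 genes. All pairs share library and depth, and this is a description. Clustering on these correlations gave a first set of 59 genes, with a median rho of 0.54 within the set, and a second set of 38 genes, with 0.55. Between the sets the median was 0.28, and 32 genes were in neither. The first set held 10 of the 15 genes with the largest ratios, among them ENSCJPG00005005709, ENSCJPG00005005711 and ENSCJPG00005007896, and its median smaller ratio was 2.60, against 2.29 in the second set.

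The sets did not always fall in the same birds. In bird 14 the median gene of the first set was 0.89 below its usual level on the log2 scale (-0.89), but that of the second set only -0.26, and in bird 20 the values were -0.56 and 0.11. In bird 27 the order was the opposite, with -0.21 in the first set and -0.58 in the second. Birds 12 (-0.88 and -0.69) and 26 (-0.58 and -0.78) were low in both. In the Tn library of bird 27 the genes highest in the hypothalamus summed to 12321 CPM, and in that of bird 20 to 2486. Over the treatments, the first set had a median of -0.09 in sensitized and 0.05 in control birds and the second set 0.11 and -0.04, within ranges that overlapped almost wholly. The sets were made from these same values and were not tested.

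**Figure D3:**
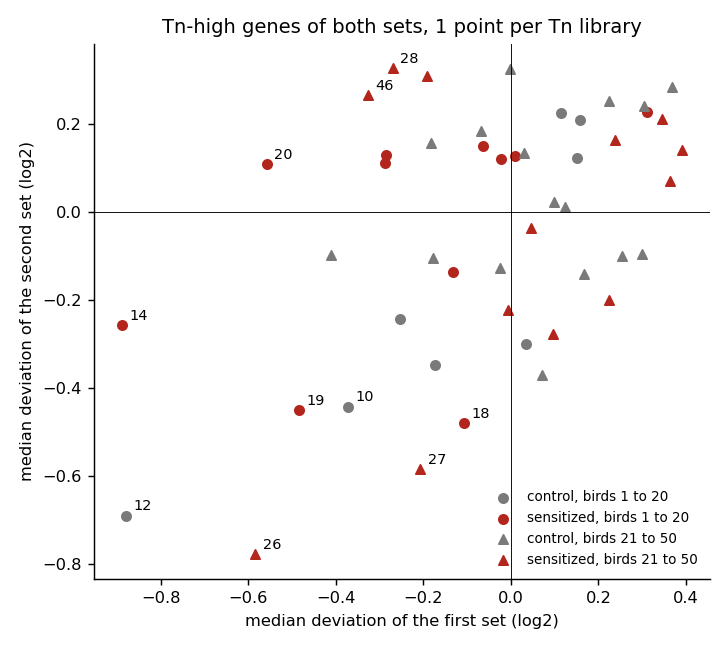
Median deviation of the 59 genes of the first set (x axis) and the 38 genes of the second set (y axis) from each gene's median over the Tn libraries, in log2 units, 1 point per Tn library, coloured by treatment and shaped by number series, with some bird numbers. Birds 12 and 26 lie low on both axes, birds 14 and 20 mainly on the first and bird 27 mainly on the second.

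A few genes of low abundance were near 0 in some birds in all 3 regions. ENSCJPG00005011119 had 3 reads or fewer in the Tn of 11 birds, with 0 reads in 5 of them (birds 2, 3, 18, 26 and 35; 3 reads would be at most 0.26 CPM at these depths), and reached 13.96 CPM in bird 49. The median was 3.53 CPM. In the same 11 birds the BnST did not exceed 0.27 CPM or the hypothalamus 0.14, while the highest BnST level, 4.80 CPM, was in bird 5, which had 10.9 in the Tn. Such low levels outside the Tn were not confined to the 11 birds. Bird 39 had 8.80 CPM in the Tn but 0.17 in the BnST and 0.08 in the hypothalamus. These 11 birds were 7 sensitized and 4 control, 6 male and 5 female. ENSCJPG00005008195 had 3 reads or fewer in the Tn of 6 birds and up to 7.35 CPM in others. In these 6 birds the BnST did not exceed 0.35 CPM or the hypothalamus 0.25. Low levels there were again not confined to them, as bird 32 had 2.44 CPM in the Tn, 0.24 in the BnST and 0.06 in the hypothalamus. Only 4 of the 129 genes had 3 reads or fewer in any Tn library, ENSCJPG00005003765 (1 library) and ENSCJPG00005020450 (2 libraries) being the others. The gene with the largest coefficient of variation, ENSCJPG00005007505, ran from 0.35 CPM in bird 48 to 17.7 in bird 25 (median 2.91) without reaching 0. These genes were singled out after their values were seen.

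The sensitization treatment was the first question of the study. Summed over the 129 genes, the Tn of sensitized birds had 5890 CPM in the lowest library, 9264 at the median and 11907 in the highest, and that of control birds 5529, 10015 and 12561. The groups overlapped almost completely. By edgeR's quasi-likelihood test over all 14242 genes tested, with Benjamini-Hochberg adjustment (adjusted p under 0.05), 0 of the 129 genes changed with treatment, and the share of all genes called was 0%. With no adjustment 2 of 129 had p under 0.05, against 4.76% of all genes, and DESeq2 and limma-voom also called 0 of the 129. The log2 fold changes ran from -0.42 to 0.59, with a median of -0.04 (all genes 0.00) and a median standard error of 0.12, and 47 were positive. The smallest p belonged to ENSCJPG00005010873, which had a median of 17.8 CPM in sensitized birds (10.9 to 27.5) and 22.5 in controls (14.4 to 28.3). Its log2 fold change was -0.23 ± 0.09 (SE), with an edgeR adjusted p of 0.939. Within birds 1 to 20 the log2 difference was -0.37 (exact permutation test, two-sided, p = 0.035, adjusted over 10 such tests 0.058; the genes of these tests were picked from the same libraries, so the within-series p-values are not independent support), and -0.14 in the high series (permutation test, p = 0.20, adjusted 0.25). ENSCJPG00005012211 was the other, at 20.6 CPM in sensitized birds (4.94 to 63.7) and 14.5 in controls (4.35 to 34.98), a log2 fold change of 0.59 ± 0.26 (SE) with the same edgeR adjusted p of 0.939. Within the series its log2 differences were 0.69 (exact permutation p = 0.066, adjusted 0.094) and 0.22 (permutation p = 0.58, adjusted 0.58).

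The same genes were followed outside the Tn. In the BnST 124 of the 129 passed the filter on low counts, and 0 of these were called for treatment (0.0556% of all genes called; 3 of the 124 at an unadjusted p under 0.05, against 5.53%). In the hypothalamus 112 passed and 0 were called by edgeR or DESeq2 (0.0207% of all genes; 3 at an unadjusted p under 0.05, against 3.69%). The difference between the treatment effects of the Tn and the BnST was tested in 1 model, and 0 of 129 genes were called (0% of 14838; 4 at an unadjusted p under 0.05, against 1.71%). Against the hypothalamus the count was also 0 (0% of 14911; 7 at an unadjusted p under 0.05, against 1.94%). Neither model had a bird term, so the unadjusted p-values ignore that both regions came from the same birds. With the bird as a block, both counts of genes called remained 0.

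Sex was the only labelled factor with calls among these genes. In the Tn, 2 of 129 genes were higher in males and 0 were lower, by edgeR's test with treatment in the model. Of all 14337 genes, 3.47% were called higher and 0.677% lower in males (4.14% in all). Among the 2, ENSCJPG00005009617 entered the list through the males, so its call is not independent of the choice of genes. Before adjustment 4 of the 129 had p under 0.05, against 10.4% of all genes. The share of the 129 was below that background, and without bird 17 the same count of 2 was obtained. Over the list, 27 of 129 log2 differences were positive, with a median of -0.07 (all genes 0.00). The medians that chose the genes held more females than males, so this direction is not independent of the choice. The count of positive differences rose to 45 with the number series in the model and to 41 without birds 12, 14 and 26.

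ENSCJPG00005000159 had 11.6 to 27.2 CPM in the Tn of males (median 21.1, n = 21) and 4.79 to 15.2 in females (median 10.6, n = 27). Of the males, 20 were above the highest female, and bird 17 alone, at 11.6 CPM, lay within the female range. The log2 difference was 0.98 ± 0.09 (SE), with an edgeR adjusted p of 1.13e-12. The direction was the same within birds 1 to 20 (log2 difference 0.81, exact permutation p = 6e-05, adjusted 0.0003) and within birds 21 to 50 (1.06, exact permutation p = 1e-07, the smallest this design can give, adjusted 1e-06). The gene was also higher in males in the BnST, by 0.89 ± 0.14 (SE), and in the hypothalamus, by 1.02 ± 0.11 (SE), with edgeR adjusted p-values of 5.26e-06 and 5.66e-11. This gene is one of those just inside the threshold, with a smaller ratio of 2.003.

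ENSCJPG00005009617 had 2.19 to 15.6 CPM in the Tn of males (median 5.99) and 0.52 to 9.002 in females (median 1.84). The female median was under the minimum of 2 CPM, so the gene did not meet the rule in females alone. It entered the list through the males, and its sex difference is not independent of that choice. All 21 males were above the female median, and 5 above the highest female. The log2 difference was 1.05 ± 0.29 (SE, edgeR adjusted p = 0.0224). Within the series the log2 difference was 1.005 in the low numbers (exact permutation p = 0.022, adjusted 0.044) and 1.43 in the high numbers (exact permutation p = 0.00072, adjusted 0.0022). In the BnST it was 0.63 ± 0.21 (SE, edgeR adjusted p = 0.086) and in the hypothalamus 0.24 ± 0.16 (SE, edgeR adjusted p = 0.473). Whether the sex difference itself differed between regions was not tested.

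ENSCJPG00005001903, one of the 3 genes without overlap between regions, had 398 to 1111 CPM in the Tn of males (median 677) and 405 to 816 in females (median 608). Its log2 difference in the Tn was 0.30 ± 0.10 (SE, edgeR adjusted p = 0.109). The difference passed the threshold with the number series in the model (0.38, edgeR adjusted p = 0.00988) and without birds 12, 14 and 26 (0.35, edgeR adjusted p = 0.0149). Of 7 alternatives for sex in the Tn, these 2 added a call, and the others left the count of genes called unchanged. Within birds 21 to 50 it was 0.46 (exact permutation p = 0.00089, adjusted 0.0022), compared with 0.17 in birds 1 to 20 (exact permutation p = 0.31, adjusted 0.34). In the BnST and the hypothalamus the gene was higher in males by 0.36 ± 0.07 and 0.37 ± 0.04 (SE), with edgeR adjusted p-values of 0.000124 and 9.16e-12. The hypothalamus library of bird 17, at 216 CPM, lay within the range of females (188 to 263) and below every other male. In the BnST bird 17 was at 192 CPM, and another male, bird 49, was lower at 176.

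Outside the Tn, 2 of 125 genes tested in the BnST were higher in males and 0 lower, where 3.25% of all genes were higher and 0.477% lower (3.73% in all). In the hypothalamus 2 of 115 were higher and 1 lower, where 3.74% of all genes were higher and 1.39% lower (5.12% in all). Before adjustment 7 genes in the BnST and 12 in the hypothalamus had p under 0.05, against 9.69% and 16.1% of all genes. The genes higher in males were ENSCJPG00005000159 and ENSCJPG00005001903 in both regions. The gene lower in males in the hypothalamus, ENSCJPG00005019129, had a log2 difference of -0.30 ± 0.09 (SE, edgeR adjusted p = 0.0322), and without bird 17 it was -0.29 (edgeR adjusted p = 0.0503).

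**Figure D4:**
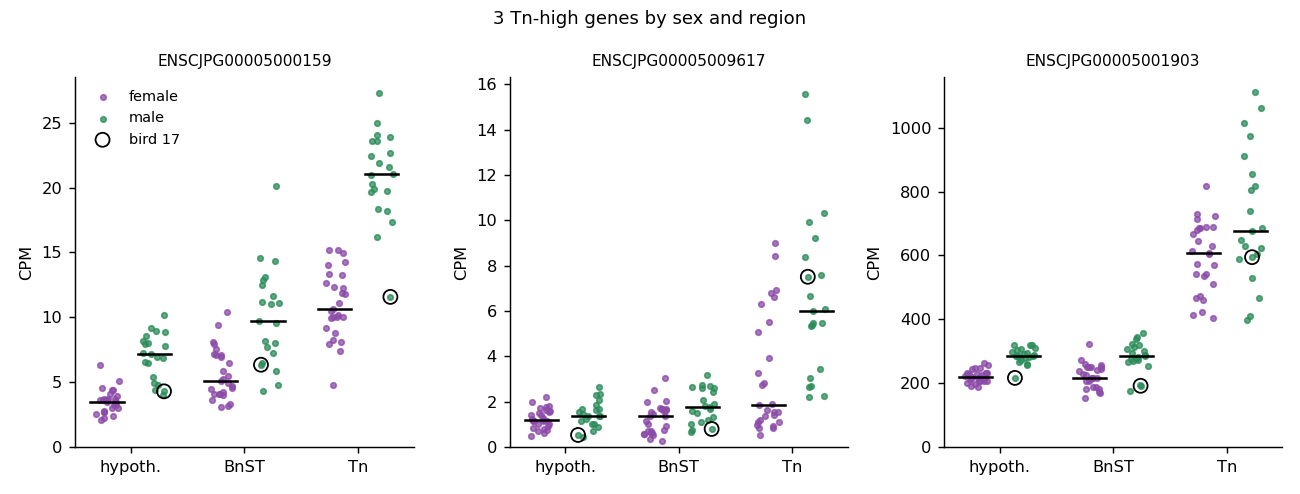
CPM of 3 Tn-high genes by sex and region, 1 point per bird with the group median as a bar (27 females, 21 males) and bird 17 ringed. For ENSCJPG00005000159 in the Tn, the 20 other males lie above all females, whereas the sexes overlap for ENSCJPG00005009617 and ENSCJPG00005001903.

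For the sex by treatment term 0 of 129 genes were called in the Tn by edgeR and by DESeq2 (0% of 14887 genes by edgeR). Before adjustment 4 of the 129 had p under 0.05, against 3.06% of the genes tested. The direction was uneven, as 107 of the 129 interaction terms were positive, with a median of 0.18 on the log2 scale, against 48.05% of all genes and a median of -0.01. A positive term means a treatment difference that was more positive in males. Without birds 12, 14 and 26 the count was 90 and the median 0.10. The summed level of the 129 genes had a median of 10352 CPM in control females (7794 to 11701), 8913 in sensitized females (6187 to 11876), 9596 in control males (5529 to 12561) and 9560 in sensitized males (5890 to 11907). All 4 ranges overlapped, and the genes move together in part, so the 129 terms are not independent of each other.

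Brooding was the other outcome of interest in the study. Its duration is not among the labels, and the labelled response classes, which do not amount to brooding against no brooding, were compared in its place. Birds classed R or S were compared with those classed NR or NS, in a model without treatment. The first group held 17 sensitized birds (R) and 5 controls (S), the second 6 sensitized birds (NR) and 17 controls (NS). Class and treatment therefore overlapped largely in this comparison. With treatment added to the edgeR model, 0 genes were called. In the model without it, 0 of 129 genes were called by edgeR, DESeq2 or limma-voom (0% of 14291 genes by edgeR). At an unadjusted p under 0.05 edgeR also gave 0, against 3.86% of all genes, and limma-voom 2 (its share of all genes is not given here). The log2 differences ran from -0.25 to 0.37 (median -0.03, median standard error 0.13). Of them 47 were positive. With the number series in the model 83 were positive and the median was 0.03. The share of all genes that were positive is not given here for either model. The standard error is that of single genes and does not measure the spread of these medians. Without those shares, neither direction can be read as particular to these genes. Among sensitized birds, the summed level had a median of 8884 CPM in R (5890 to 11876) and 9324 in NR (7404 to 11723). By edgeR and DESeq2 0 of 129 genes were called between these classes (0% of 14748 genes; 5 at an unadjusted p under 0.05 by edgeR, against 3.74%). The smallest p belonged to ENSCJPG00005001217, with a log2 difference of -0.60 ± 0.24 (SE, edgeR adjusted p = 0.993).

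Among control birds, the 5 S birds had summed levels of 10534 (bird 1), 7978 (bird 2), 8466 (bird 11), 10747 (bird 32) and 10273 CPM (bird 35), all within the range of the 17 NS birds (5529 to 12561, median 9970). By edgeR and DESeq2 0 of 129 genes were called between them (0% of 14688 genes). Before adjustment 3 of 129 had p under 0.05 by edgeR, against 3.74%, and 7 by DESeq2. With the number series in the model the edgeR count rose to 30 of 129, again with 0 called, and the median log2 difference moved from 0.05 to 0.20. The shares of all genes for the 7 and the 30 are not given here. Neither count can be set against the 3.74%, or read as particular to these genes. The S birds numbered 3 in the low series and 2 in the high series. The NS birds of the low series were only birds 9, 10 and 12, all male, and bird 12 had the lowest summed level (5529 CPM). Of the S birds, only bird 11 was male. Sex was not in these models, so with the number series included the difference is also mixed with sex.

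The number series itself was compared with treatment in the model. Of the 129 genes 0 were called by edgeR or DESeq2, where edgeR called 0.709% of 14389 genes, and 31 of the 129 had an unadjusted p under 0.05, against 14.3% of all genes. Of the log2 differences, 110 of 129 were positive, meaning higher in birds 21 to 50, with a median of 0.14 (all genes -0.01, of which 46.8% were positive). The medians that chose the genes held more birds of the high series. By the same rule, birds 1 to 20 alone gave 70 of the 129 and birds 21 to 50 alone gave 119. The direction and the count of 31 are therefore not independent of the choice of genes. Without birds 12, 14 and 26 the counts were 20 and 101, and the median 0.12. The share of all genes without these birds is not given here, so the 20 cannot be set against the 14.3%. The summed level was 8872 CPM at the median of birds 1 to 20 (5529 to 11723) and 9992 in birds 21 to 50 (6187 to 12561). The sexes were spread unevenly over it, with 7 females and 12 males in the low numbers and 20 females and 9 males in the high numbers.

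**Figure D5:**
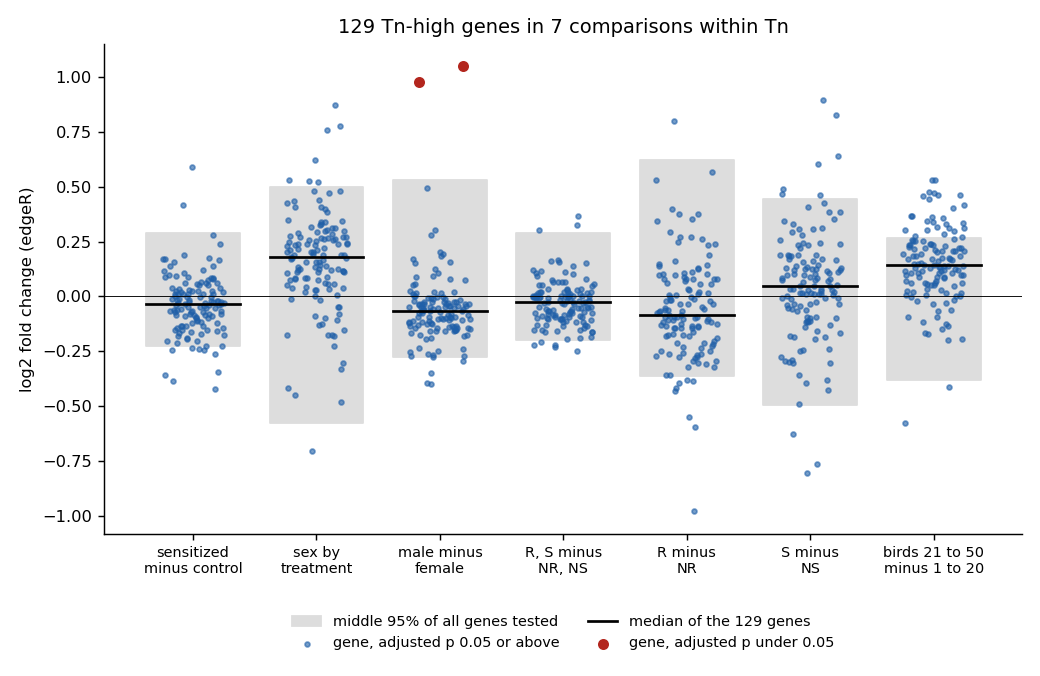
Log2 fold changes of the 129 Tn-high genes in 7 comparisons within the Tn by edgeR, 1 point per gene, with their median as a bar and the middle 95% of all genes tested in grey. Only in the sex comparison do genes pass the adjusted threshold (2, in red). Among these, ENSCJPG00005009617 entered the list through the males. The medians of the sex by treatment and number series comparisons, 0.18 and 0.14, lie above 0.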

How the data were processed

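RNA from Tn, BnST and hypothalamus punches was sequenced by the authors, who per the labels used CASAVA 1.8.2 and HISAT2, mapped reads to the Ensembl quail genome (Coturnix_japonica_2.0) and counted them with HTSeq (version and strand setting not given in the sources used here). The deposited values are raw counts per gene. CPM were computed from column totals. The 129 genes, the comparisons and the gene lists were chosen with earlier results of these data known, and the lists could not be used because 0 identifiers had a symbol. Genes without a symbol were given as counts, with at most 2 identifiers per direction, the exceptions being stated.

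Tests used edgeR 4.0.16 (R 4.3.3): TMM, filterByExpr (minimum count 10, total 15), robust quasi-likelihood F test, Benjamini-Hochberg over all genes tested. Alternatives used DESeq2 1.42.0, limma 3.58.1, other filters, covariates or birds. The code was tested on simulated counts with 1 spread for all genes and no bird effect. That test does not cover correlation between the regions of a bird, or genes that vary more widely. P-values measure the spread between birds. The exception is the main models that joined the Tn with another region, which took the libraries of a bird as independent.

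The bird number pairs regions, since each bird gave all 3. Deviations from the treatment means in the Tn and the BnST correlated within birds with a median r of 0.42 over 14438 genes (over 0.1 in 46 of 48 birds), and with the hypothalamus with 0.43 (48 of 48). The lowest r within a bird was 0.07 with the BnST and 0.26 with the hypothalamus. The library of the same number gave the highest r for 39 of 48 birds in the BnST and 48 in the hypothalamus. The pairing with the BnST is thus less clearly borne out by the counts. No libraries were identical. Sets of co-varying genes came from average-linkage clustering of 1 minus Spearman's rho, cut at 0.6. Counting limits cover counting error only. Fold changes of the authors' own comparisons were not used.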

Additional observations from a re-analysis of the deposited data

Results flagged for a closer look

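In 65 tests of whether 1 Tn library lay far from the others of its group of sex, treatment and response class (groups of 4 to 10 birds, over the summed level and 12 genes singled out in the text), 4 were positive. The rule would flag about 1 in 20 groups by chance for genes not chosen by their values, but several of these genes were singled out for their spread, so that rate does not apply and the flags are a description. ENSCJPG00005007505 was at 2.11 CPM in bird 2, against 3.69 to 3.74 in the other 3 female control S birds, and at 17.7 CPM in bird 25, against 0.75 to 6.58 in the other 7 female sensitized R birds. ENSCJPG00005009617 was at 6.60 CPM in bird 32, against 0.84 to 1.55 in the other 3 female control S birds. ENSCJPG00005011119 was at 13.96 CPM in bird 49, against 0 to 7.03 in the other 8 male sensitized R birds. Summed over the 129 genes, 0 libraries were outlying in this way.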

How the results depend on the processing

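The count of Tn-high genes called was the same in 59 of 62 alternatives over 13 comparisons. The exceptions were sex in the Tn, with 3 genes in place of 2 with the number series in the model and without birds 12, 14 and 26, and sex in the hypothalamus, with 2 in place of 3 without bird 17. None of the single-gene sex differences retested under the alternatives reversed. The median log2 difference of the 129 genes changed sign for response class with the number series in the model (-0.03 to 0.03), for S against NS without bird 32 (0.05 to -0.001) and for the treatment effect of the Tn minus the BnST with the bird as a block (-0.02 to 0.03). Leaving out each S bird in turn gave 0 to 0 calls. With the bird as a replicate block, the treatment effect of the Tn minus that of either other region gave 0 calls, among all genes as well. Over all genes, DESeq2 called 1 gene for sex by treatment and 4 for response class, where edgeR called 0, and 1 for response class was called without the filter on low counts. For the number series, the 102 genes became 217 with DESeq2 and 62 without birds 12, 14 and 26, and for treatment in the hypothalamus 3 became 8 with DESeq2. The cause was not tested. The rule gave 33 genes with a ratio threshold of 3, 82 from birds 1 to 20 only and 88 to 150 in the other alternatives.

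The regional levels chose these genes, so nothing here tests that they differ between regions. With a median standard error of 0.12 for treatment in the Tn, small changes could pass unseen, more so among the 44 genes under 10 CPM. With 6 NR and 5 S birds, the class comparisons were less precise (median standard errors of 0.21 and 0.20).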
